A study of Rattus rattus with 12 samples.

Results

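RNA-seq of perigonadal fat was compared between rats sacrificed 14 days and 3 days after an injection of ice slurry, with 3 libraries on each day. The comparison was made per transcript. Its members are the 25533 of 46726 transcripts in the deposited tables (54.6%) that had at least 10 reads in 3 or more of these 6 libraries. All rats were male Sprague-Dawley rats, 8 weeks old and about 200 g at the start, and were kept on a high fat diet (60 kcal% fat), begun 9 weeks before treatment and continued until sacrifice. Slurry, a mixture of ice, saline and glycerol, was given during open surgery of the abdomen, as 10 ml into the perigonadal fat of a single side. Surgery, injection and diet were therefore shared by both groups, which differ by their labels in the time after injection. The series also holds 3 untreated control libraries and 3 libraries of day 1, and these 6 are used here for comparison only. By the methods of the study, the side that got no slurry served as control. Whether the control libraries came from such a side or from rats without treatment is not stated for the RNA-seq. Their day, and whether they came from the same rats as the treated libraries, are not stated either. The labels name the organism as Rattus rattus beside the Sprague-Dawley strain, a strain of the brown rat.

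White fat consists largely of adipocytes, which store triglycerides and secrete hormones such as leptin, together with fibroblasts, endothelial cells and macrophages. Adipocytes are damaged by cooling that other cells survive, because their lipids crystallize at low temperature, and the loss of fat that follows is called cryolipolysis. Dying adipocytes are then cleared by macrophages, and the tissue is repaired with newly made collagen. The comparison of day 14 with day 3 asks which transcripts differ between a late and an early point of this response.

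The deposited tables name each transcript by its Ensembl identifier, and no gene is paired with it there. The gene table used here, for 32100 genes of Rattus rattus, holds no identifier of this kind, and 0 of the 46726 were found in it. No transcript was given a gene name, and markers of adipocytes, macrophages or other cell types were not checked. The tissue is named from the labels alone, and neither day is given the name of a phase. In bulk tissue, fewer cells of a type and less RNA per cell cannot be told apart.

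The depth of the libraries overlapped between the days. The total estimated count was 26216660, 22395408 and 28802360 reads in day 3 libraries 1 to 3, and 21057277, 25826040 and 26729799 reads in day 14 libraries 1 to 3. With every library thinned to 20466899 reads, 24431, 23996 and 23943 transcripts had at least 10 reads at day 3, and 24642, 24604 and 24747 at day 14. The 3 libraries of day 14 were above the 3 of day 3, with means of 24664 ± 74.1 and 24123 ± 268 transcripts (SD, n = 3 each). A two-sided exact permutation test gave p = 0.1, which is the smallest p that 3 against 3 libraries allow. The difference was 541 transcripts, and it was 285 at a minimum of 100 reads (exact p = 0.2) and 407 without thinning (exact p = 0.3). The untreated control libraries had 23072, 23882 and 24066 such transcripts at the same depth and the day 1 libraries 23566, 23854 and 24140, all fewer than each day 14 library.

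The 100 most abundant transcripts of a library held 24.5%, 22.5% and 24.7% of its reads in the day 3 libraries and 25.0%, 24.8% and 26.6% in the day 14 libraries. The means of 23.9% ± 1.22 and 25.5% ± 1.03 (SD, n = 3 each) differed by 1.54 percentage points (two-sided exact permutation test, p = 0.1), and the 2 days did not overlap. The direction depended on the number of transcripts taken, since for the 10 most abundant the difference of day 14 minus day 3 was -1.62 percentage points (exact p = 0.3). For the 1000 most abundant it was 0.823 (exact p = 0.5), and for shares of TPM in place of reads it was 4.85 (exact p = 0.1). For the 100 most abundant it was 0.841 without day 3 replicate 2 and 0.951 without day 14 replicate 3. The untreated control libraries held 28.3%, 25.1% and 23.3% in their 100 most abundant transcripts. This range covered the day 14 libraries and overlapped with day 3, of which replicate 2 (22.5%) lay below it. The day 1 libraries held 19.8%, 24.6% and 18.4%, with the lowest mean of the 4 groups (20.9% ± 3.26, SD, n = 3).

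Libraries of day 3 and of day 14 resembled those of their own day more than those of the other of these 2 days. Over the 25533 transcripts, the Spearman rank correlation of log2 CPM (read counts scaled to library size, prior count 2) was between 0.923 and 0.934 among the 3 pairs of day 3 libraries and between 0.900 and 0.917 among the 3 pairs of day 14 libraries. It was between 0.854 and 0.896 for the 9 pairs made of a library of each day. The 9 pairs of a day 3 and a day 1 library had 0.887 to 0.912, with a median of 0.905 against 0.875 for day 3 and day 14. Among the 3 pairs of day 1 libraries it was 0.885 to 0.907 (median 0.898), so that day 1 was not set apart from day 3 in this way. These correlations are across transcripts, which are not independent replicates, and are given as a description.

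Between day 3 and day 14, 618 of the 25533 transcripts (2.42%) changed more than 2-fold at an adjusted p below 0.05 (quasi-likelihood test of edgeR, Benjamini-Hochberg adjustment, 12 libraries in the fit). Of these, 169 (0.662% of those tested) were higher at day 14 and 449 (1.76%) were lower. The transcripts that passed both thresholds are referred to as called. Without the fold threshold 826 transcripts had an adjusted p under 0.05, 206 higher and 620 lower. The unadjusted p was under 0.05 for 5092 transcripts (19.9%), 2358 of them with a higher and 2734 with a lower level at day 14, so that both directions were closer in number before the adjustment. Over all transcripts tested the median log2 fold change was 0.05.

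In each of the 618 called transcripts the values of the 3 day 14 libraries lay entirely above or entirely below those of day 3. The same held for 8364 of all tested transcripts (32.8%), with day 14 above in 4057 and below in 4307. The spread within a day was larger at day 14. The median SD of log2 CPM over tested transcripts was 0.315 at day 3 and 0.406 at day 14 (n = 3 libraries each). It was 0.195 and 0.385 over the 449 lower transcripts and 0.279 and 0.438 over the 169 higher ones. The called sets were selected by a test that favors a small spread, so their values are a description.

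**Figure D1:**
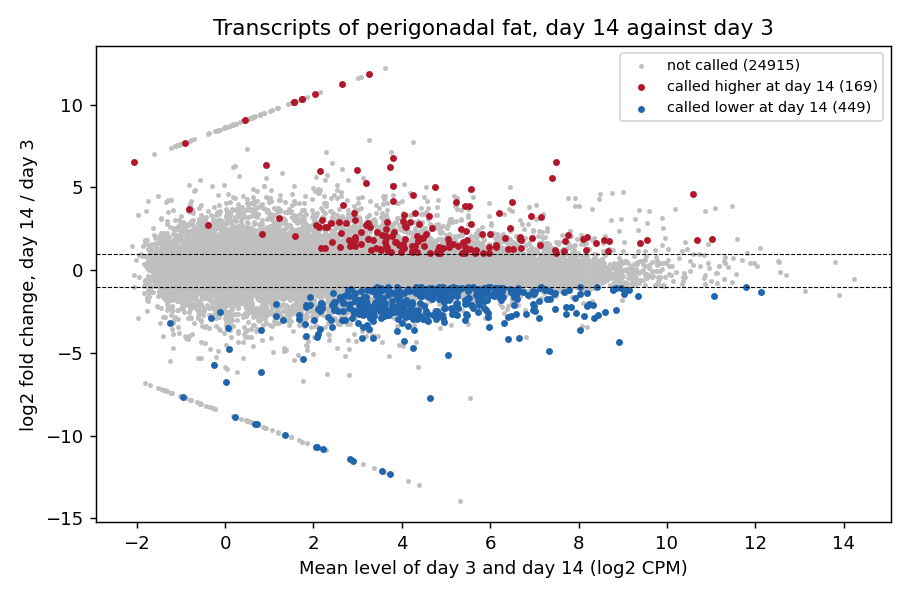
Log2 fold change of day 14 over day 3 for each of the 25533 transcripts tested (vertical axis) against the mean level of the 2 days in log2 CPM (horizontal axis). Grey points were not called, the 169 red points were called higher and the 449 blue points called lower at day 14, and dashed lines mark a 2-fold change. The slanted outer lines hold the 145 tested transcripts without a read in any library of 1 day, whose plotted fold depends on the prior count.

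The number of called transcripts rested on the test and on single libraries. With DESeq2, 1904 transcripts passed the same thresholds, 944 higher and 960 lower, among them 617 of the 618, so that the excess of lower transcripts in edgeR's result was nearly absent. Without 1 of the 6 compared libraries the number was between 91 (14 higher and 77 lower, without day 3 replicate 3) and 573 (137 and 436, without day 14 replicate 1), with 112 without day 3 replicate 1 (14 and 98), 112 without day 14 replicate 2 (15 and 97), 331 without day 14 replicate 3 (89 and 242) and 382 without day 3 replicate 2 (84 and 298). Of the 618, 67 transcripts were called in each of these 6 fits, 5 higher and 62 lower. The read filter was applied again in each of these fits, which tested 24514 to 24756 transcripts. The 37 called transcripts with at least 10 reads in exactly 3 of the 6 libraries were therefore not tested in every fit. For these 37 the loss of a call was fixed by the filter. Libraries outside the comparison also moved the counts, and the total was 1049 without day 1 replicate 2 (457 higher and 592 lower). In place of 169 higher transcripts there were 101 without control replicate 1, 98 without control replicate 2, 325 without day 1 replicate 1 and 101 without day 1 replicate 3.

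Most changes were of moderate size. Of the 449 lower transcripts, 418 had at least 10 reads in all 6 libraries. Among these 418, the level fell 2-fold to 4-fold in 230, 4-fold to 8-fold in 160 and more than 8-fold in 28, with a median of 3.67-fold. Of the 169 higher transcripts, 148 had at least 10 reads in all 6 libraries. The rise was 2-fold to 4-fold in 90 of them, 4-fold to 8-fold in 38 and more than 8-fold in 20, with a median of 3.50-fold. The medians of both directions were thus similar among transcripts with reads in all 6 libraries, while more than 8-fold changes were 20 of 148 and 28 of 418. The 2-fold limit and the test that selected the transcripts also shape these sizes.

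A smaller set was close to absent on one of the days. At day 14, 17 of the lower transcripts had at most 3 reads in every library, and 12 of these had no read at all. Taking 3 reads per library as the floor, these 12 were at least 8.36-fold to 212-fold lower at day 14 (median bound 67.7-fold). In the other direction, 12 of the higher transcripts had at most 3 reads in every day 3 library, 10 of them without any read, and these 10 were at least 4.10-fold to 163-fold higher at day 14 (median bound 53.9-fold). They were present at low to moderate levels on the other day, with a median of 4.17 TPM at day 3 for the former 12 and 2.38 TPM at day 14 for the latter 10. TPM is a level scaled for transcript length and depth. Over all tested transcripts, 86 had at most 3 reads in every day 14 library (68 without any read) and 98 in every day 3 library (77 without any read). Among the called ones it was 17 of the 449 lower and 12 of the 169 higher transcripts, which are sets of unequal size. These bounds cover counting error only, and such transcripts pass the read filter only through the day on which they are high, so their number is no measure of how common such changes are. Salmon, the program used by the authors, divides the reads of a gene among its transcripts, so that a transcript can lack reads while other transcripts of the same gene have them.

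Some transcripts differed widely between libraries of the same day. Among the 25533 transcripts, 1539 (6.03%) had at most 3 reads in 1 library and at least 100 reads in another library of the same day, day 3 or day 14. Of the 618 called transcripts, 0 showed such a swing. A wide spread within a day also works against a call, so this 0 follows largely from how the transcripts were selected. At the edge of the filter, 1812 transcripts reached 10 reads in exactly 3 of the 6 libraries, with a median of 17.3 reads per library, and 2064 reached it in exactly 2 and were not tested, with a median of 9.83 reads.

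Called transcripts were more frequent among abundant ones. Of the 1369 transcripts with a mean of 100 TPM or more over the 6 libraries, 5.48% were called, 22 higher and 53 lower. Between 10 and 100 TPM it was 3.30% of 9190 transcripts, 73 higher and 230 lower. Below 1 TPM it was 0.417% of 3838, with 10 higher and 6 lower. The part of counting precision in this order was not tested. The lower transcripts had a median of 26.8 TPM at day 3 and 6.12 TPM at day 14. The higher transcripts had a median of 5.27 TPM at day 3 and 18.0 TPM at day 14, where the median over all transcripts tested was 6.65 and 6.61 TPM.

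Together, the 449 lower transcripts made up 3.71%, 3.08% and 4.08% of all TPM in the day 3 libraries and 1.32%, 1.05% and 0.967% in the day 14 libraries. Their share was thus more than 2-fold smaller in each day 14 library than in any day 3 library, as their selection by this comparison implies. In the untreated control it was 2.72%, 2.01% and 2.70%, and at day 1 it was 3.18%, 2.07% and 2.59%. The control and day 1 libraries, which had no part in the contrast, lay between the 2 days except that day 1 replicate 1 lay above day 3 replicate 2. The 10 most abundant of the lower transcripts held 30.8% of the summed level at day 3.

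The 169 higher transcripts made up 0.580%, 0.617% and 0.536% of TPM at day 3 and 2.28%, 2.47% and 1.65% at day 14. In this sum the other groups overlapped with day 3, with 0.599%, 0.613% and 0.675% in the untreated control and 0.403%, 0.655% and 0.645% at day 1. This summed level was dominated by few transcripts, because the 10 most abundant held 64.3% of it at day 14. The median log2 CPM of the 169, in which each transcript counts the same, was at least 3.43 in each control library and at most 3.03 in each day 3 library, so that these groups did not overlap on this scale. The day 1 libraries had 2.88, 3.61 and 3.34, which overlapped with both, and the day 14 libraries had 4.75, 5.16 and 4.64.

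**Figure D2:**
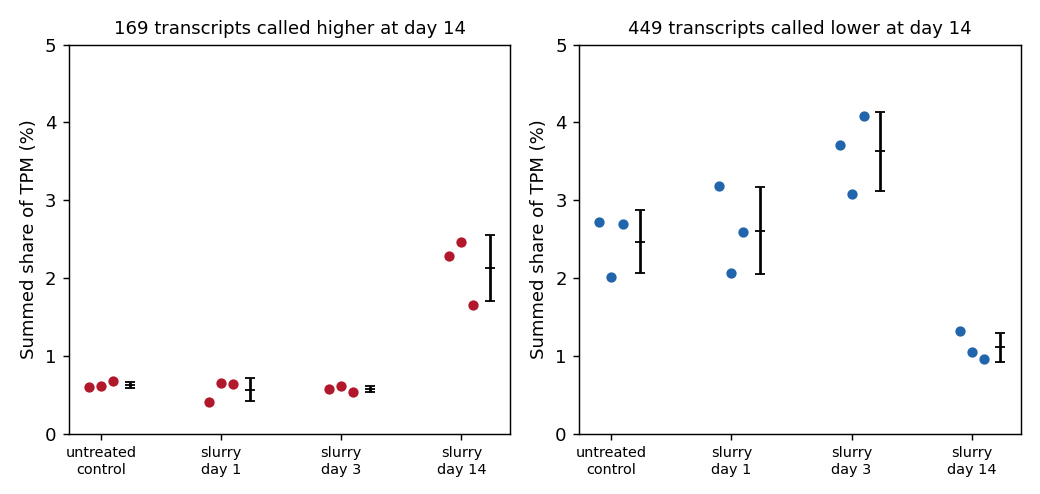
Summed share of TPM in percent (vertical axis) of the 169 transcripts called higher (left) and the 449 called lower (right) at day 14, in each library of the 4 groups (points), with mean and SD beside them (n = 3 libraries). The higher set lies between 1.65% and 2.47% at day 14, above all other libraries, while the control libraries of the lower set lie between 2.01% and 2.72%, between the 2 days.

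Transcript by transcript, the level in untreated control fat was mostly between the 2 days. The mean of the 3 control libraries lay between the means of day 3 and day 14 for 398 of the 449 lower transcripts (88.6%), below both for 16 and above both for 35. Among all 11973 tested transcripts with a lower mean at day 14, it lay between for 38.5%. Among the called ones the median log2 ratio to the control, on the CPM + 0.5 scale, was 0.87 at day 3 and -0.80 at day 14. The typical lower transcript was therefore above the control level at day 3 and below it at day 14. For the 169 higher transcripts the control mean lay between for 113 (66.9%), below both for 48 (28.4%) and above both for 8, while it lay between for 31.7% of the 13560 tested transcripts with a higher mean at day 14. Their median log2 ratio to the control was -0.48 at day 3 and 1.12 at day 14. For the 944 transcripts called higher by DESeq2 it was -0.90 and 0.66. The day further from the control was thus day 14 with edgeR and day 3 with DESeq2. For the 960 called lower by DESeq2 the median log2 ratio was 0.81 and -0.79. The control mean lay above both days for 220 of the 944 (23.3%). Over the 13560 tested transcripts with a higher mean at day 14, it lay above both for 30.4% and below both for 37.9%. Over the 11973 with a lower mean, it lay above both for 28.8% and below both for 32.7%. The transcripts were selected for a wide gap between the 2 days, so these shares are a description without a test.

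With a change of more than 2-fold from the control mean as the limit, 152 of the 449 lower transcripts (33.9%) were away from control at day 3 but not at day 14. Another 109 (24.3%) were away from it at day 14 only, 41 (9.13%) were on opposite sides of it on the 2 days, and 142 (31.6%) were within 2-fold on both. Of the 169 higher transcripts, 36 (21.3%) were away from control at day 3 only and 79 (46.7%) at day 14 only, with 6 (3.55%) on opposite sides and 40 (23.7%) within 2-fold on both. Over all tested transcripts these classes held 9.74% at day 3 only, 9.67% at day 14 only, 0.713% on opposite sides and 73.6% within 2-fold on both. The remaining class, away from control on the same side on both days, held 1.11% of the lower, 4.73% of the higher and 6.3% of all tested transcripts. By this limit some called transcripts were away from control at the early day and others at the late day. The limit was applied to group means without a test against control, so transcripts close to it can fall into either class.

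The day 1 libraries gave a similar order. Their mean lay between day 3 and day 14 for 387 of the 449 lower transcripts (86.2%) and for 124 of the 169 higher ones (73.4%). Over all tested transcripts of the same direction it lay between for 37.8% and 42.3%. It lay above both days for 48 of the lower transcripts (10.7%, against 37.0% of all tested) and below both for 42 of the higher ones (24.9%, against 35.4%). The median log2 ratio to day 1 was 0.60 at day 3 and -1.15 at day 14 for the lower transcripts, and -0.27 and 1.38 for the higher ones. Among transcripts called by DESeq2 the day 1 mean lay above both days for 16.9% of the 960 lower ones and below both for 18.4% of the 944 higher ones. Their median log2 ratio to day 1 was 0.57 and -1.08 for the lower and -0.53 and 1.12 for the higher ones.

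Because no gene name was at hand, only 4 transcripts are given by identifier. In each direction they are the largest fold change and the highest mean TPM among called transcripts with at least 10 reads in all 6 libraries and days that did not overlap. The 4 transcripts kept their direction in each of the 23 alternatives run for them. Their selection for days that did not overlap largely implies this, so it is no test of the direction. Of these, the test against a 2-fold change was chosen after seeing the data, and each of the 4 lost its call in it. The other losses of a call were in fits without 1 of the 6 compared libraries.

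The largest rise among such transcripts was that of ENSRNOT00000057022.4, a transcript of 2037 bases. Its level was 2.72, 2.62 and 4.89 TPM at day 3 and 89.4, 614 and 157 TPM at day 14. The day 14 libraries were all far above those of day 3, and replicate 2 was the highest by a wide margin. The log2 fold change was 6.51 ± 1.28 (SE, n = 3 per day, adjusted p = 0.0288 from edgeR). In the untreated control it had 1.78, 2.82 and 0.283 TPM and at day 1 it had 0.282, 4.39 and 0.844 TPM, so that these 2 groups overlapped with day 3 and not with day 14. The call was kept in 17 of the 23 alternatives, with adjusted p between 1.1e-08 and 0.142 (DESeq2 or edgeR). In edgeR it was lost without day 3 replicate 1 (adjusted p = 0.117), 2 (0.0898) or 3 (0.121) and without day 14 replicate 2 (0.0857) or 3 (0.0505), and in the test against a 2-fold change (0.142). Without day 14 replicate 2 the log2 fold change was 5.27.

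The highest mean TPM among the transcripts that rose belonged to ENSRNOT00000025344.6, of 1372 bases. It had 1345, 998 and 1207 TPM at day 3 and 5019.9, 4305 and 3087 TPM at day 14. The lowest day 14 library was more than 2-fold above the highest day 3 library. The log2 fold change was 1.89 ± 0.30 (SE, n = 3 per day, adjusted p = 0.0152 from edgeR). The control libraries had 437, 688 and 1144 TPM and the day 1 libraries 666, 667 and 1130.0 TPM, which overlapped with day 3 and stayed below day 14. The call was kept in 19 of the 23 alternatives, with adjusted p between 2.32e-08 and 0.207 (DESeq2 or edgeR). In edgeR it was lost without day 3 replicate 1 (adjusted p = 0.0577) or 3 (0.0697), without day 14 replicate 2 (0.0551) and in the test against a 2-fold change (0.207).

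The largest fall among such transcripts was that of ENSRNOT00000016541.5, of 1924 bases. Its level was 295, 142 and 526 TPM at day 3 and 16.1, 10.8 and 4.21 TPM at day 14. It was high and variable at day 3 and low in each day 14 library, with a log2 fold change of -4.90 ± 0.78 (SE, n = 3 per day, adjusted p = 0.0150 from edgeR). In the untreated control it had 198, 80.6 and 330.1 TPM and at day 1 it had 167, 45.6 and 104 TPM. The control and day 1 overlapped with day 3, and the day 14 libraries were the lowest of the 12. The call was kept in 19 of the 23 alternatives, with adjusted p between 2.7e-11 and 0.0882 (DESeq2 or edgeR). In edgeR it was lost without day 3 replicate 1 (adjusted p = 0.0505) or 3 (0.0548), without day 14 replicate 2 (0.0671) and in the test against a 2-fold change (0.0882).

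Among the transcripts that fell, ENSRNOT00000086091.2, of 2063 bases, had the highest mean TPM. It had 3082, 2025 and 3232 TPM at day 3 and 1053, 689.6 and 921 TPM at day 14. The log2 fold change was -1.57 ± 0.25 (SE, n = 3 per day, adjusted p = 0.0153 from edgeR). In the untreated control it had 1032, 1155 and 1116 TPM and at day 1 it had 843, 1202 and 794 TPM. Here each day 3 library was above every library of the other groups, and day 14 overlapped with day 1. In TPM the highest day 14 library also overlapped with the control, but in CPM, the scale of the test, the day 14 libraries (1192, 867 and 1183) were all below those of the control (1554, 1588 and 1420.3). The call was kept in 19 of the 23 alternatives, with adjusted p between 1.22e-07 and 0.336 (DESeq2 or edgeR). In edgeR it was lost without day 3 replicate 1 (adjusted p = 0.0598) or 3 (0.0644), without day 14 replicate 2 (0.0675) and in the test against a 2-fold change (0.336).

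**Figure D3:**
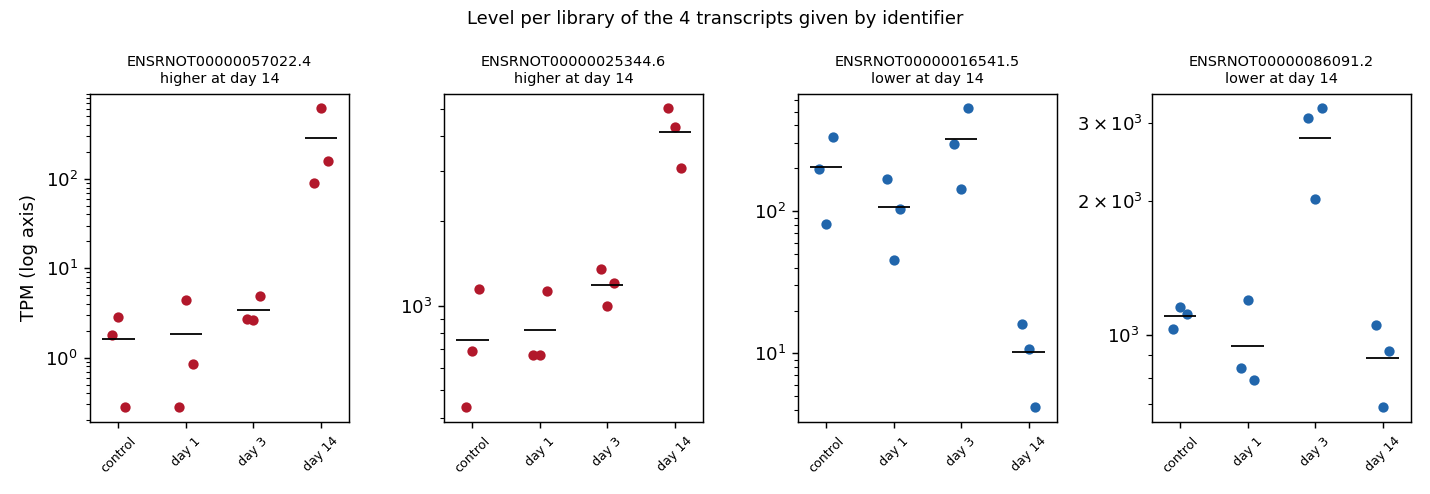
TPM on a log axis (vertical) of the 4 transcripts given by identifier in each library of the untreated control, day 1, day 3 and day 14 (points), with the group mean as a line. The first (89.4 to 614 TPM at day 14) and the second stand above all other groups at day 14, the third (4.21 to 16.1 TPM) stands below them at day 14, and the fourth stands above them at day 3.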

How the data were processed

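RNA was isolated from perigonadal fat, selected for polyA, and sequenced by the authors in 12 libraries (4 groups of 3, stated as biologic replicates). The authors quantified transcripts with Salmon (version not given in the sources used here). The index is given as Ensembl mRatBN7.2 in the methods and as rn6 in the submitters' processing notes, which also list FastQC 0.11.3 and DESeq2. The deposited estimated count gives the reads assigned to each transcript and is not normalized. TPM as deposited is scaled for effective length and depth by Salmon and was used for levels. The deposited lengths are those of the index.

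Estimated counts were rounded, normalized by TMM and tested per transcript with edgeR 4.0.16 in R 4.3.3 (estimateDisp and glmQLFit with robust estimation, glmQLFTest), with 12 libraries in 1 fit and the contrast day 14 minus day 3. Transcripts had at least 10 reads in 3 of the 6 compared libraries. Called transcripts changed over 2-fold at an adjusted p below 0.05. SE is the log2 fold change divided by the square root of F. Measures per library were compared by exact permutation (SciPy 1.17.1), with 3 libraries per group as the limit of precision. No pair of libraries of a day agreed within sampling noise (chi-square per degree of freedom 40.5 to 148). The script was tested on simulated data. Alternatives were DESeq2 1.42.0, other normalizations, filters and thresholds, a replicate block and leaving out each library.

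Identifiers given in the text follow the rule stated beside them. Lists of named genes and cell type markers were planned for the case that symbols could be matched, and are not analysed here. The members, lists, thresholds and alternatives were chosen with earlier results of these data known.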

Additional observations from a re-analysis of the deposited data

How the results depend on the processing

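The number of called transcripts was 618. It was 1904 with DESeq2, 1108 with edgeR's bias-adjusted quasi-likelihood method (436 higher and 672 lower), 12 with the test against a 2-fold change and 383 with a replicate block (81 higher and 302 lower), and the cause was not tested. Over the fits without 1 of the 12 libraries it ranged from 91 to 1049. The other alternatives, among them RLE (631), upper-quartile (605) and total-count scaling (579), only the 6 compared libraries (720), filterByExpr (555), no filter (475) and at least 10 reads in all 6 libraries (799), stayed within 1.5 times in total. The calls were not all the same, since the fit of the 6 compared libraries shared 427 of the 618. The higher calls alone moved further, to 98 with no filter and 255 with at least 10 reads in all 6 libraries. More transcripts were lower than higher in each of the 24 alternatives, but the share of higher ones, 27.3% in the reported result, ranged from 8.33% with the test against a 2-fold change to 49.6% with DESeq2. It was 12.5%, 15.4% and 13.4% without day 3 replicate 1, day 3 replicate 3 and day 14 replicate 2, 20.6% with no filter, 38.9% with only the 6 compared libraries (280 higher and 440 lower) and 43.6% without day 1 replicate 2. Replicate numbers gave no pairing of libraries, since the correlation of deviations was -0.064, -0.005 and -0.021 for the 3 same-numbered pairs and 0 of 6 libraries correlated best with its own number. The share of reads in the most abundant transcripts changed direction when 10 were taken (-1.62 percentage points). Among transcripts called by DESeq2 the control mean lay between the 2 days for 82.6% of the lower and 58.2% of the higher ones, against 88.6% and 66.9%. Depth limits low transcripts, and 21193 were below the read filter.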

Other observations

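Called transcripts were found at every length. Of transcripts under 1000 bases 1.91% were called (10 higher and 26 lower of 1884), between 1000 and 2000 bases 2.71% (55 and 126 of 6689), between 2000 and 4000 bases 2.62% (55 and 220 of 10486), and of those of 4000 bases and over 1.95% (49 and 77 of 6474). The median length was 2377 bases for the higher, 2559 for the lower and 2641 for all tested transcripts.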
